A study of Mus musculus with 9 samples.

Results

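The insulin-like growth factor (IGF) axis of mouse mammary cell preparations was followed through 3 stages of isolation. It is taken here as 10 genes out of 19938 measured: the ligands Igf1 and Igf2, the receptors Igf1r and Igf2r, and the binding proteins Igfbp2, Igfbp3, Igfbp4, Igfbp5, Igfbp6 and Igfbp7. The genes were chosen by symbol, as a family, after the low Igf2 level of mock sorted cells had been seen. The difference between mock sorted and trypsinized cells is therefore described for every gene with no test. Each of the 10 genes had exactly 1 row on the array.

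All cells came from the mammary glands of wild-type C3H female mice aged 8 to 9 weeks. Collagenase had released them from fat in every group. Untrypsinized cells met collagenase only, trypsinized cells were also digested with trypsin, and mock sorted cells had both digestions and a mock FACS sort, with 3 Affymetrix whole-transcript arrays in each group. The labels name biological replicates but no animals, and do not say whether animals were pooled. The p-values below so cover the spread among these samples alone, and some of that spread may be technical.

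IGF1 and IGF2 are small secreted proteins related to insulin. Both signal through the receptor tyrosine kinase encoded by Igf1r, whereas the protein encoded by Igf2r, which also carries mannose 6-phosphate-tagged enzymes to lysosomes, takes up IGF2 for breakdown. IGF binding proteins hold the ligands outside the cell and can limit or prolong their action. In the mammary gland, IGF1 made by the stroma acts on ductal epithelium, and IGFBP5 is known for its rise in involution.

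Both ligands and several binding proteins were lower after the isolation steps, while neither receptor was called changed. Between untrypsinized and mock sorted cells, 3 of the 9 genes other than Igf2 were called lower: Igf1, Igfbp4 and Igfbp6. Over all genes 4.47% were called in that comparison, 3.4% lower and 1.08% higher, and none of the 9 was called higher. The level of Igf2 was 3.44-fold lower in mock sorted than in untrypsinized cells, given as a description. Igfbp6 was the only one of the 10 genes called after trypsin alone, at 1.54-fold lower, where 1.46% of all genes were called. Igfbp3 and Igfbp5 were called in neither comparison. A call needed a limma p-value, adjusted over all genes, of at most 0.05 together with a fold of 1.5 or more.

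Igf2 is transcribed from more than 1 start. RefSeq (GRCm38.p6) lists 4 start sites for it, and the array row for Igf2 lists 3 RefSeq mRNAs, so the values below cannot tell the starts apart. The 150 bases before each start are shown, numbered in the direction of transcription, because the single Igf2 value cannot be assigned to any 1 of these starts. Capitals mark the GC box GGGCGG and the TATA box TATAAA, searched on both strands; no match overlapped another.
Igf2 start 1, minus strand, chr7:142666817-142666966: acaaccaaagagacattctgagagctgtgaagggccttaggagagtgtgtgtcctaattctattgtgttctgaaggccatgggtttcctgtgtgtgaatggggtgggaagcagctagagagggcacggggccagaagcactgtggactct
Igf2 start 2, minus strand, chr7:142661272-142661421: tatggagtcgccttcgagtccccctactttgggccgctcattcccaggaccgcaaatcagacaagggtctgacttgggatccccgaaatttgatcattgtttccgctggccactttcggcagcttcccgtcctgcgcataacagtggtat
Igf2 start 3, minus strand, chr7:142658805-142658954: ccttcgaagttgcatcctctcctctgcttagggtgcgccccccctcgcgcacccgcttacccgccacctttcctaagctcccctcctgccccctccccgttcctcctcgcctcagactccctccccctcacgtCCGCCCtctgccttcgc
Igf2 start 4, minus strand, chr7:142657497-142657646: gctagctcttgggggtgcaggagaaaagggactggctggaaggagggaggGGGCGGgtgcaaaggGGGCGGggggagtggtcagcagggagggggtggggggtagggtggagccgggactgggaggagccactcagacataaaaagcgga

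The windows before Igf2 starts 3 and 4 held 1 and 2 GC boxes, and those before starts 1 and 2 held none. The GC content was 52.0%, 54.7%, 68.0% and 66.7% from start 1 to start 4, against a median of 54.0% over all 32851 promoter windows of this length. No TATA box letters stood in any of the 4 windows. The 150 bases before the start are also shown for the 3 genes called lower, so that they can be set beside those of Igf2.
Igf1, plus strand, chr10:87860961-87861110: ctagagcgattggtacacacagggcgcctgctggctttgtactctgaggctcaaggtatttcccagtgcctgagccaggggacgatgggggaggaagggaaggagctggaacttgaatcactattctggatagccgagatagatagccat
Igfbp4, plus strand, chr11:99041094-99041243: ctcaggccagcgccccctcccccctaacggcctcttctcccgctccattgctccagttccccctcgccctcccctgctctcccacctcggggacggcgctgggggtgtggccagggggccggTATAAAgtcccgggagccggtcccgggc
Igfbp6, plus strand, chr15:102144036-102144185: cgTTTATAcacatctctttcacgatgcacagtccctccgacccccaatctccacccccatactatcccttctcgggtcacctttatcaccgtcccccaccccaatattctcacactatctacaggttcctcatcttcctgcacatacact

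The Igfbp4 window held a TATA box on the transcribed orientation, 28 to 23 bases before the start. In the Igfbp6 window the match lay on the opposite strand, 148 to 143 bases before the start. The Igf1 window held neither motif. Over the 14 windows of the 10 genes, 6 held a GC box and 2 a TATA box, against 28.6% and 7.57% of all windows. These matches are descriptions of letters, and the start used in these cells was not measured.

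The ligands are taken first. Igf2, an imprinted growth factor best known from the fetus, had log2 intensities of 10.95, 11.09 and 11.09 on the untrypsinized arrays, 10.64, 10.61 and 10.64 on the trypsinized arrays, and 9.21, 9.26 and 9.32 on the mock sorted arrays. Every trypsinized array lay below every untrypsinized array, and every mock sorted array lay below both. The median intensity was 2180, 1600 and 612 in the 3 groups. After trypsin the level of Igf2 was lower by 1.33-fold, under the minimum fold for a call (log2 difference -0.41, SE 0.05, n = 3 arrays per group, limma adjusted p = 0.00136). That test shares its trypsinized arrays with the contrast by which Igf2 was noticed.

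At the mock sort the log2 difference of Igf2 was -1.37, or 2.58-fold, at rank 9 from the lowest of 19938 genes. Near it were Fhl5 at -1.38 and Rbp7 at -1.36. The olfactory receptor genes Olfr804 and Olfr1477, of the family used below as a guide to background, also lay there at -1.38 and -1.37. This step held 76.8% of the log2 difference of -1.78 between untrypsinized and mock sorted cells. Over the alternatives tried, the mock sort difference of Igf2 lay between -1.38 and -1.35, and between -1.40 and -1.34 when single arrays were left out. Several of these could not move it: Igf2 has 1 row, the replicate block keeps group differences, and untrypsinized arrays are not in this contrast. The range is thus a description and no support for the value.

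Igf1, the main mediator of growth hormone action, stood at 11.28, 11.24 and 11.41 on untrypsinized arrays, 11.11, 10.84 and 11.03 on trypsinized arrays, and 10.76, 10.49 and 10.71 on mock sorted arrays. The groups did not overlap at either step. From untrypsinized to mock sorted cells Igf1 fell by 0.66 on the log2 scale (SE 0.09, limma adjusted p = 0.00105), or 1.58-fold. After trypsin alone it was lower by 1.24-fold (log2 difference -0.32, SE 0.09, limma adjusted p = 0.0398). The mock sort step made up 51.9% of its difference. Igf1 was called on a narrow margin of fold: without mock sorted replicate 2, its lowest array, the log2 difference was -0.58 (limma adjusted p = 0.00357) and the call was lost.

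**Figure D1:**
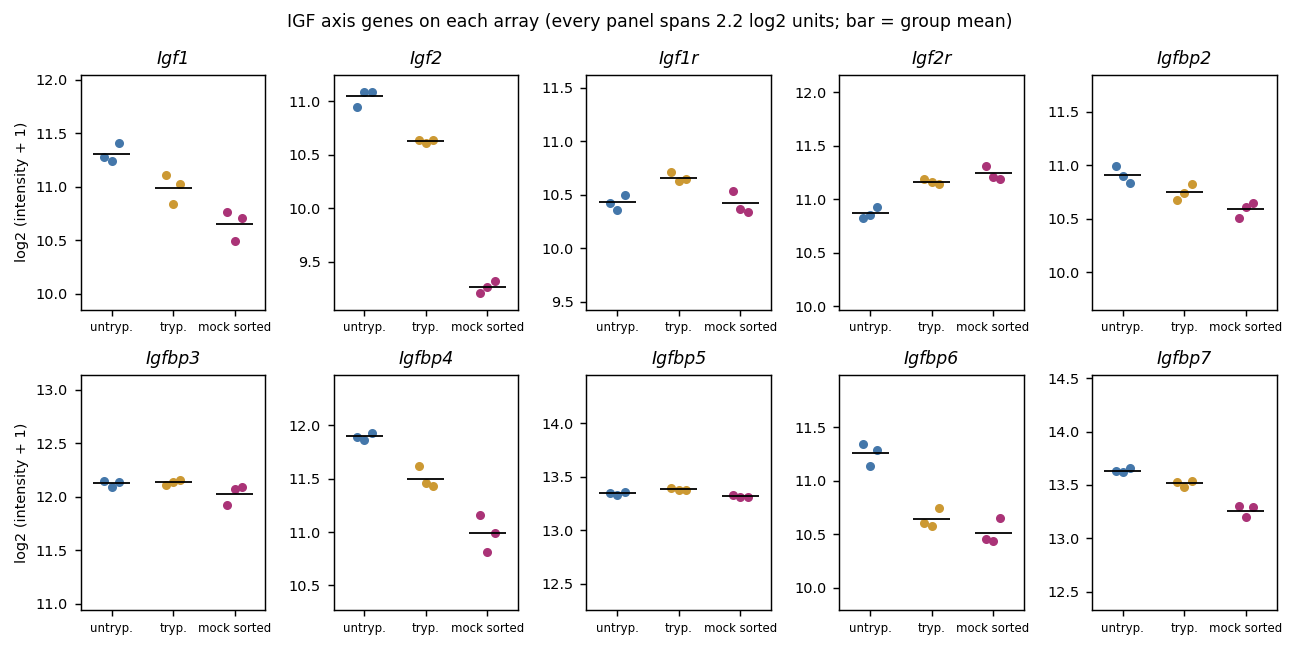
Log2 intensity of the 10 IGF axis genes on each of the 9 arrays (points) with group means (bars); every panel spans the same number of log2 units around its own centre. Igf2 shows the deepest step, at the mock sort from about 10.63 to 9.26, while Igfbp5 stays between 13.31 and 13.40.

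Neither receptor was lower beyond the spread of its arrays in mock sorted than in untrypsinized cells. Igf2r stood at 10.82, 10.85 and 10.93 on untrypsinized arrays, 11.19, 11.16 and 11.14 on trypsinized arrays, and 11.31, 11.21 and 11.19 on mock sorted arrays. Its untrypsinized arrays lay below all others. The level of Igf2r was 1.23-fold higher after trypsin (log2 difference 0.29, SE 0.04, limma adjusted p = 0.00365) and 1.29-fold higher in mock sorted than in untrypsinized cells (0.37, SE 0.04, limma adjusted p = 0.000478). Both are under the minimum fold, and with arrays set to a common median they were 0.16 and 0.22.

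Igf1r stood at 10.42, 10.36 and 10.50 on untrypsinized arrays, 10.71, 10.63 and 10.65 on trypsinized arrays, and 10.54, 10.37 and 10.34 on mock sorted arrays. The trypsinized arrays lay above both other groups, and the untrypsinized and mock sorted arrays overlapped. After trypsin Igf1r was 1.18-fold higher (log2 difference 0.23, SE 0.06, limma adjusted p = 0.0255). With arrays set to a common median that difference was 0.10 (limma adjusted p = 0.244). Between untrypsinized and mock sorted cells the 95% interval of the difference ran from -0.15 to 0.13.

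Among the binding proteins, Igfbp4 and Igfbp6 fell and the others moved less. Igfbp4, which holds IGFs until the protease PAPP-A cuts it, stood at 11.89, 11.86 and 11.93 on untrypsinized arrays, 11.62, 11.46 and 11.43 on trypsinized arrays, and 11.16, 10.81 and 10.99 on mock sorted arrays. The 3 groups did not overlap. From untrypsinized to mock sorted cells it fell by 0.91 on the log2 scale (SE 0.09, limma adjusted p = 0.000136), or 1.88-fold. After trypsin alone the log2 difference was -0.39 (SE 0.09, limma adjusted p = 0.0146), and 56.7% of the whole difference lay at the mock sort. Mock sorted replicate 2 was the lowest array for Igfbp4, as for Igf1.

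Igfbp6, a binding protein that prefers IGF2 to IGF1, stood at 11.34, 11.14 and 11.29 on untrypsinized arrays, 10.60, 10.58 and 10.74 on trypsinized arrays, and 10.45, 10.44 and 10.65 on mock sorted arrays. The untrypsinized arrays lay above all others, and the trypsinized and mock sorted arrays overlapped as groups. Between arrays of the same number, which by their values seem to go together for these groups, the mock sorted array was the lower in each of the 3 pairs. It fell by 0.62 after trypsin (SE 0.08, limma adjusted p = 0.00158) and the log2 difference from untrypsinized to mock sorted cells was -0.74, or 1.67-fold (SE 0.08, limma adjusted p = 0.000210). The mock sort held 16.6% of its difference, against 76.8% for Igf2. Whether those shares differ was not tested. Its call after trypsin was lost by fold with array weights and without untrypsinized replicate 1, both at a log2 difference of -0.58 (limma adjusted p = 0.00253 and 0.00671).

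Igfbp7, a secreted protein of vessel walls and stroma that binds IGFs weakly, stood at 13.63, 13.62 and 13.66, then 13.53, 13.48 and 13.54, then 13.30, 13.20 and 13.29. Each group lay below the one before. Its log2 difference between untrypsinized and mock sorted cells was -0.37 (SE 0.04, limma adjusted p = 0.000231), or 1.29-fold, under the minimum fold. Its median intensity was 12700 in untrypsinized cells. Igfbp2 also was lower at each step without overlap, from 10.91 ± 0.08 through 10.75 ± 0.08 to 10.59 ± 0.07 (mean ± SD of log2 intensity, n = 3). Its log2 difference over both steps was -0.32 (SE 0.06, limma adjusted p = 0.00409).

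Igfbp3, the main carrier of IGFs in blood, and Igfbp5 differed least. Igfbp3 ranged from 11.92 to 12.16 over the 9 arrays, with mock sorted replicate 1 lowest. The 95% interval of its difference between untrypsinized and mock sorted cells was -0.21 to 0.01. Igfbp5 ranged from 13.31 to 13.40, and its interval was -0.10 to 0.04. The adjusted p did not pass for either gene in either tested comparison. With arrays set to a common median, both passed the adjusted p between untrypsinized and mock sorted cells, at log2 differences of -0.25 and -0.18.

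In counts, 1 of 10 genes was called after trypsin, and it was lower, where 1.46% of all genes were called, 0.933% lower and 0.532% higher. On the adjusted p alone, 4 were lower and 2 higher, against 11.5% and 13.9% of all genes. The arrays did not overlap for 6 lower and 3 higher genes, against 19.4% and 25.0% of all genes. Between untrypsinized and mock sorted cells, 3 of 9 were called, all lower, where 4.47% of all genes were called, 3.4% lower and 1.08% higher. On the adjusted p alone 5 were lower and 1 higher, against 18.0% and 21.0%. Arrays did not overlap for 6 lower and 1 higher of these 9, against 23.4% and 28.7%. The median log2 difference was -0.14 over the 10 genes after trypsin and -0.32 over the 9 genes after both steps, against 0.04 and 0.05 over all genes. At the mock sort 1 of 10, Igf2, was at least 1.5-fold lower, where 1.32% of all genes were. Arrays did not overlap there for 8 lower and 1 higher gene, where 14.3% and 9.74% of all genes did not. Nothing is read from these counts at the mock sort, since the set was chosen on that contrast. The 3 comparisons share arrays, so these counts are not independent.

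Igf1, Igf2, Igfbp2, Igfbp4 and Igfbp7 were lower without overlap at each step in turn, 5 of 10 genes, where 7.78% of all genes were. This pattern includes the mock sort, the contrast on which the set was chosen, so it is a description and nothing is read from the count.

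**Figure D2:**
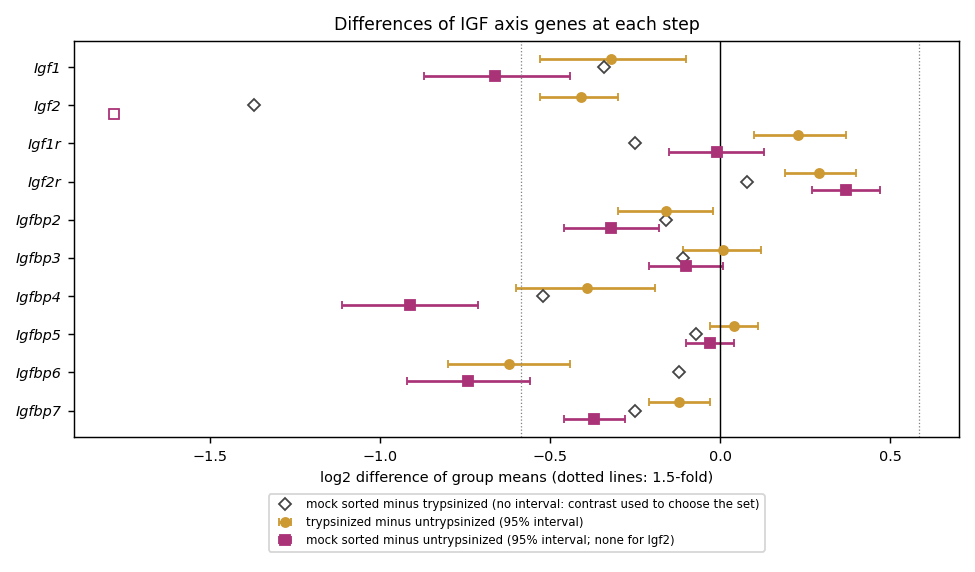
Log2 differences of group means for the 10 genes (circles, trypsinized minus untrypsinized; diamonds, mock sorted minus trypsinized; squares, mock sorted minus untrypsinized), with 95% intervals where a test was made and dotted lines at 1.5-fold. Igf2 lies far to the left at the mock sort (-1.37) and Igfbp6 has most of its difference after trypsin (-0.62).

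No call on these genes changed with the scaling of arrays. Setting arrays to a common median moved the median of all genes from 0.04 to -0.09 after trypsin and from 0.05 to -0.09 over both steps. Igf1, Igfbp4 and Igfbp6 were called between untrypsinized and mock sorted cells under both other scalings. Relative to that shift, Igfbp3 and Igfbp5 after trypsin had no settled sign, at 0.01 and 0.04 as deposited and -0.13 and -0.10 with a common median. Over all genes, 106 were called higher and 186 lower after trypsin, against 57 and 279 with quantile normalization and 55 and 376 with a common median. Over both steps 215 were higher and 677 lower, against 116 and 861, and 92 and 1028. The median intensity of an array lay between 345 and 408, and precision is limited by the 3 arrays of a group. The mean level of each of the 10 genes exceeded that of all 1027 olfactory receptor genes, a rough guide to background where the file holds no detection calls.

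Markers of other cell types moved over the same steps. The summed intensity of 15 endothelial markers ranged from 40139 to 46248 on untrypsinized arrays, 31825 to 32137 on trypsinized arrays and 15343 to 18122 on mock sorted arrays. All 15 were called lower between untrypsinized and mock sorted cells, and 4 after trypsin, where 3.4% and 0.933% of all genes were. The median log2 difference of the 15 markers was -0.48 after trypsin, -1.04 at the mock sort and -1.54 over both. For Igf2 the values were -0.41, -1.37 and -1.78. In bulk RNA, fewer cells of a type and less RNA per cell cannot be told apart. The part of these cells in the Igf2 values was not tested.

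The 9 pericyte and vascular smooth muscle markers summed to 22190 to 24300, 18342 to 18659 and 12366 to 13069 in the 3 groups. Of these, 6 were called lower over both steps. The median log2 difference of the 9 markers was -0.37 after trypsin, -0.56 at the mock sort and -0.93 over both. For this and each list that follows, the share of all genes called lower over both steps was 3.4%. The 11 fibroblast markers summed to 37995 to 42169, 33877 to 37768 and 31561 to 34648, with 1 called lower. Luminal epithelial markers summed to 81865 to 85003 on untrypsinized arrays and 91796 to 92727 on mock sorted arrays. By limma, with arrays scaled as deposited, 0 of these 12 were called. At an unadjusted p under 0.05 the counts were 9 higher and 1 lower. On the adjusted p alone 7 were higher and 1 lower, where 21.0% and 18.0% of all genes were. Basal and myoepithelial markers summed to 56895 to 58534 and then 50138 to 51431, with 0 of 10 called by limma. At an unadjusted p under 0.05 the count was 7 lower, and on the adjusted p alone 6 lower, where 18.0% of all genes were. Adipocyte markers summed to 20171 to 22455, 17402 to 17957 and 12658 to 13342, with 4 of 10 called lower over both steps. Their median log2 difference was -0.08 after trypsin, -0.08 at the mock sort and -0.15 over both. Schwann cell markers summed to 8802 to 9437, 6862 to 7287 and 5668 to 6109, with 3 of 7 called lower. On the adjusted p alone 2 of 7 were higher, where 21.0% of all genes were. Skeletal muscle markers summed to 5522 to 7750, 5011 to 5551 and 4555 to 4909, with 5 of 8 called lower. Macrophage and myeloid markers summed to 14596 to 15578, 14010 to 16703 and 12274 to 15081, with 2 of 10 called lower. Lymphocyte markers were uneven, at 7171 to 17969 on trypsinized arrays and 6257 to 15640 on mock sorted arrays, against 4143 to 4325 on untrypsinized arrays. Of 11 measured, 3 were called higher over both steps, where 1.08% of all genes were. After trypsin 2 were called higher, where 0.532% of all genes were. The calls of Lat and Cd8b1 were lost under several of the alternatives. No marker of any list was at 0. The part of any of these cell types in the values of the IGF axis genes was not tested.

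**Figure D3:**
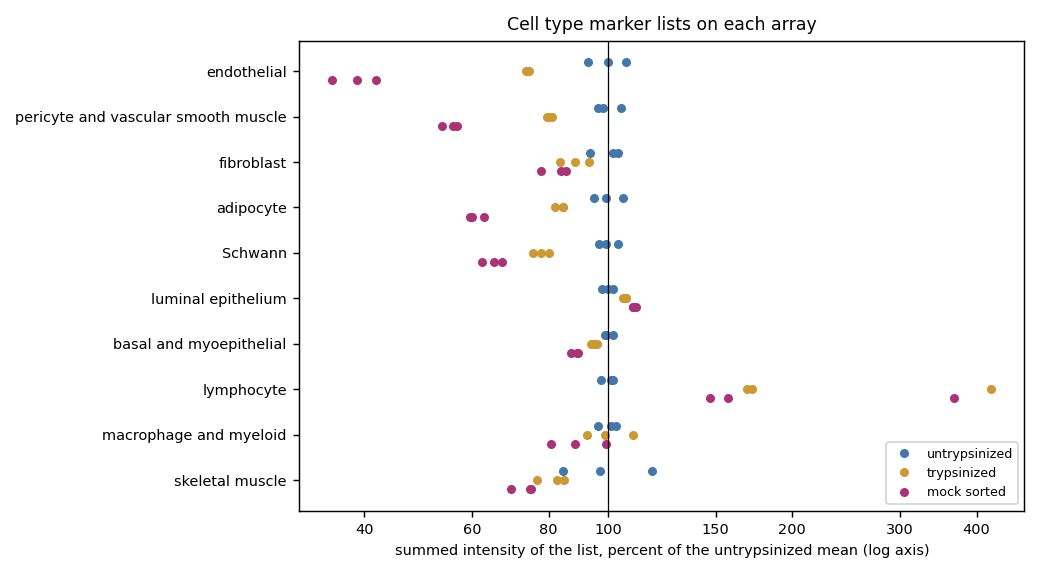
Summed intensity of each cell type marker list on each array, as percent of the untrypsinized mean (log axis; 3 points per group). Endothelial markers are lowest on mock sorted arrays, and lymphocyte markers are highest on 1 trypsinized and 1 mock sorted array, both replicate 1.

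The profile of each of the 10 genes over the 9 arrays was set beside the mean profile of each marker list. Likeness was the root mean square (RMS) difference between log2 values centred on each gene's mean, where a small value means a closer profile. The measure is not scaled for the size of change. A gene that moved little therefore lies near any list whose mean moved little. In the same way, a gene that fell much lies nearer to lists whose mean also fell much. Igf2 lay closest to the mean profile of the endothelial markers, at an RMS difference of 0.169 log2 units, with pericyte markers next at 0.364. These distances rest largely on the mock sort, the contrast by which Igf2 was noticed, so they are descriptions and no support for a likeness. Igfbp4 lay closest to the pericyte markers (0.089), and Igfbp2 and Igfbp3 both to the basal and myoepithelial markers (0.061 and 0.065). Igfbp6 lay closest to the skeletal muscle markers (0.118), with Schwann cell markers next (0.152). Igf1 lay at 0.111 from the adipocyte and 0.123 from the fibroblast markers, and Igfbp7 at 0.071 from the fibroblast and 0.082 from the basal markers, so neither gene is set apart by 1 list. Igf2r lay closest to the luminal markers (0.106), with basal markers at 0.256. Igf1r lay at 0.144 from the luminal and 0.145 from the macrophage markers, and Igfbp5 at 0.085 from the luminal and 0.089 from the basal markers. Igfbp3 and Igfbp5 moved little over the arrays, and Igf1r lay about as near the macrophage as the luminal markers. No likeness to a list is therefore read from the distances of Igf1r, Igfbp3 and Igfbp5. These distances describe profiles over the same 9 arrays, and they do not locate the RNA in a cell type. The comparison with lists was chosen after seeing the data.

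With small RNAs, clone names and predicted genes set aside, the 5 genes closest to Igf2 were Rbp7, a retinol carrier, at 0.062, Tmem252 at 0.095, Ablim3, an actin-binding protein, at 0.104, Cldn5, a tight junction protein of vessels, at 0.105 and Myct1 at 0.108. Their log2 differences at the mock sort were -1.36, -1.21, -1.27, -1.32 and -1.35. These genes were picked for closeness over arrays that include the mock sort, so nothing is read from that likeness. The closest other gene of the IGF axis, Igfbp4, lay at 0.422 from Igf2. Igf2 was noticed for its fall at the mock sort, so that distance too is only a description. Closest to Igf1 were Islr (0.044), Nid1, a basement membrane linker (0.046), and Srpx2 (0.047). Closest to Igfbp4 were Ggt5 (0.024), Ttc7b (0.043) and Slco2b1, an organic anion carrier (0.048). Closest to Igfbp6 were Gpc3, a heparan sulfate proteoglycan of the cell surface (0.066), Kcnt2, a potassium channel (0.069), and Tmem119 (0.075).

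**Figure D4:**
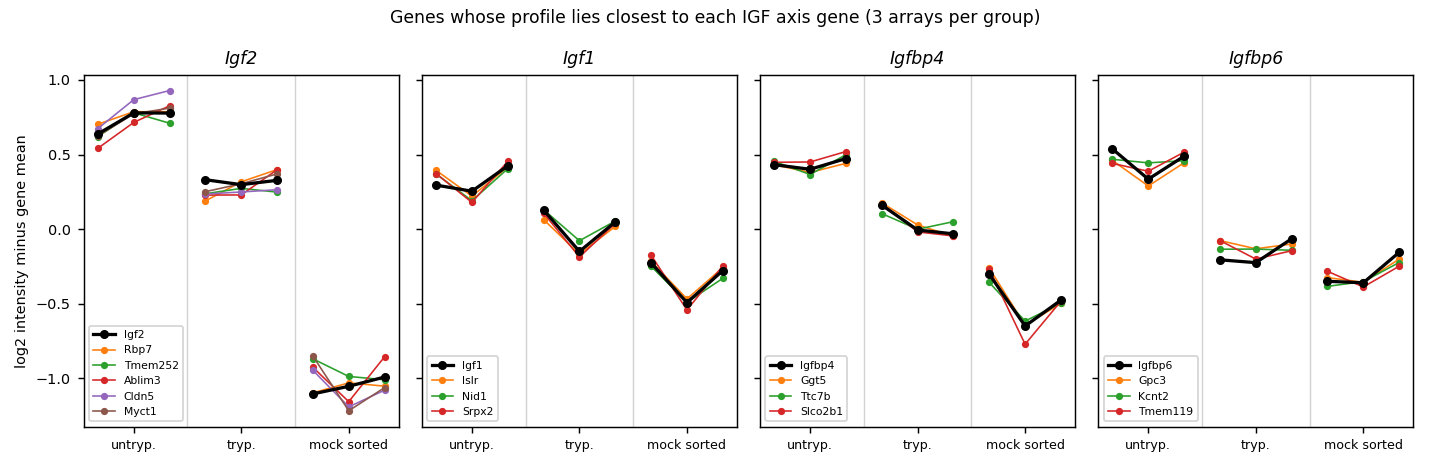
Log2 intensity minus each gene's mean on the 9 arrays for Igf2, Igf1, Igfbp4 and Igfbp6 (black) and the genes closest to each (colours); lines join the arrays of a group for reading only. The Igf2 panel drops most at the mock sort, whereas the Igfbp6 panel drops mainly after trypsin.

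The measured neighbours of Igf2 on chromosome 7 had differences from -0.19 to 0.57 over both steps. Mir483, a microRNA gene, lies within Igf2, and its 2 mature products are shown because a row for it was measured beside its host. Capitals mark the seed, bases 2 to 8, which differs between them (RefSeq, GRCm38.p6).
mmu-miR-483-5p, minus strand, chr7:142654968-142654989: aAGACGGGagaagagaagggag
mmu-miR-483-3p, minus strand, chr7:142654932-142654952: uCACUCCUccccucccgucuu

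The Mir483 row stood at 8.44 ± 0.19, 8.35 ± 0.07 and 8.44 ± 0.15 in the 3 groups (mean ± SD, n = 3). Its log2 difference between untrypsinized and mock sorted cells had a 95% interval of -0.24 to 0.24 (limma adjusted p = 0.993), while that of Igf2 was -1.78. The level of this row was near the 95th percentile of olfactory receptor genes, 8.20, and whether it exceeds background is not known. The array row does not separate the hairpin from its mature products. On 1 side of Igf2, Ins2, an insulin gene, had a log2 difference of 0.22 and Th, the tyrosine hydroxylase gene, of 0.22. On the other side the values were -0.19 for Mrpl23, 0.20 for Tnnt3, 0.43 for Prr33 and 0.57 for Lsp1, a leukocyte protein gene. Lymphocyte markers were uneven on these arrays, and their part in the Lsp1 value was not tested. H19 was not analysed here.

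Other imprinted genes, fixed as a list, were split. Of 11 measured, 3 were called lower over both steps, Ndn, Sgce and Mest, and none higher, where 3.4% and 1.08% of all genes were. On the adjusted p alone 4 were lower and 4 higher, where 18.0% and 21.0% of all genes were. Ndn, which encodes the growth suppressor necdin, fell by 0.73 after trypsin (SE 0.05, limma adjusted p = 0.000259), and its log2 difference over both steps was -1.26 (SE 0.05, limma adjusted p = 2.71e-06). Sgce, the epsilon-sarcoglycan gene, fell by 0.65 (SE 0.07, limma adjusted p = 0.000651), with a log2 difference of -1.23 over both steps (SE 0.07, limma adjusted p = 5.53e-06), and its call after trypsin was lost by fold without untrypsinized replicate 3. Mest fell by 1.06 over both steps (SE 0.08, limma adjusted p = 4.52e-05), and with arrays set to a common median it was called after trypsin too, at -0.64. For all 3 the difference after trypsin was larger than the -0.41 of Igf2, and over both steps it was smaller than -1.78. The median of the list was 0.03 over both steps, against 0.05 over all genes.

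Among carriers and regulators of the binding proteins, 2 of 10 were called lower over both steps, where 3.4% of all genes were. After trypsin limma called 0 of 10, with 2 lower and 1 higher at an unadjusted p under 0.05. On the adjusted p alone 1 was lower and 0 higher, where 11.5% and 13.9% of all genes were. Over both steps Htra1, a secreted serine protease that cuts IGF binding proteins, fell by 0.83 (SE 0.06, limma adjusted p = 4.35e-05). Stc1, a secreted glycoprotein, fell by 0.90 over both steps (SE 0.15, limma adjusted p = 0.00272), with mock sorted arrays spread from 9.31 to 9.98. Pappa, which encodes the IGFBP4 protease PAPP-A, had a log2 difference of -0.16 over both steps (limma adjusted p = 0.0639). With arrays set to a common median it was -0.31 (limma adjusted p = 0.00547). The median of the list over both steps was 0.03.

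Of the relay from insulin and IGF receptors to AKT and mTOR, 1 of 22 measured genes was called over both steps, a share near the 4.47% of all genes. Grb10, an imprinted adaptor that dampens signalling by the insulin and IGF1 receptors, fell by 0.90 (SE 0.07, limma adjusted p = 4.79e-05), and its log2 difference after trypsin was -0.43 (SE 0.07, limma adjusted p = 0.00510). On the adjusted p alone, over both steps, 4 genes were lower and 6 higher, where 18.0% and 21.0% of all genes were. After trypsin limma called 0 of 22, with 3 lower and 9 higher at an unadjusted p under 0.05. There the adjusted p alone gave 3 lower and 6 higher, where 11.5% and 13.9% of all genes were. Over both steps Irs1, the receptor substrate that docks PI3-kinase, was among the higher at 0.31 (SE 0.05, limma adjusted p = 0.00200). Tsc2, a brake on mTOR, was at 0.21 over both steps (SE 0.03, limma adjusted p = 0.00191). With arrays set to a common median, Irs1 was at 0.16 over both steps (limma adjusted p = 0.0508) and Tsc2 at 0.06 (limma adjusted p = 0.348). The median of the list over both steps was 0.03.

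Growth hormone drives Igf1 transcription in many tissues, and 0 of 7 genes of its pathway were called by limma over both steps. At an unadjusted p under 0.05 the counts were 5 lower and 1 higher. On the adjusted p alone 4 were lower and 1 higher, where 18.0% and 21.0% of all genes were. Ghr, the growth hormone receptor, was at -0.48 (SE 0.05, limma adjusted p = 0.000129), Socs2, a target and brake of the pathway, at -0.38 (SE 0.04, limma adjusted p = 0.000217) and Socs3 at -0.34 (SE 0.04, limma adjusted p = 0.000346). The value of Socs3 depended on the row taken: with the mean of all its rows it was -0.12 over both steps (limma adjusted p = 0.182), and after trypsin it was 0.04 in place of -0.15. With arrays set to a common median Ghr was called, at -0.63. The 2 measured IGF2 mRNA binding proteins, Igf2bp1 and Igf2bp3, were at 0.20 and 0.18, or 0.01 and -0.03 after quantile normalization, with 0 called by limma and 1 higher at an unadjusted p under 0.05. Of 4 measured genes of mannose 6-phosphate sorting 0 were called by limma, with 1 lower at an unadjusted p under 0.05, and this was Nagpa, which uncovers the tag that IGF2R binds, at -0.26 (limma adjusted p = 0.00621).

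**Figure D5:**
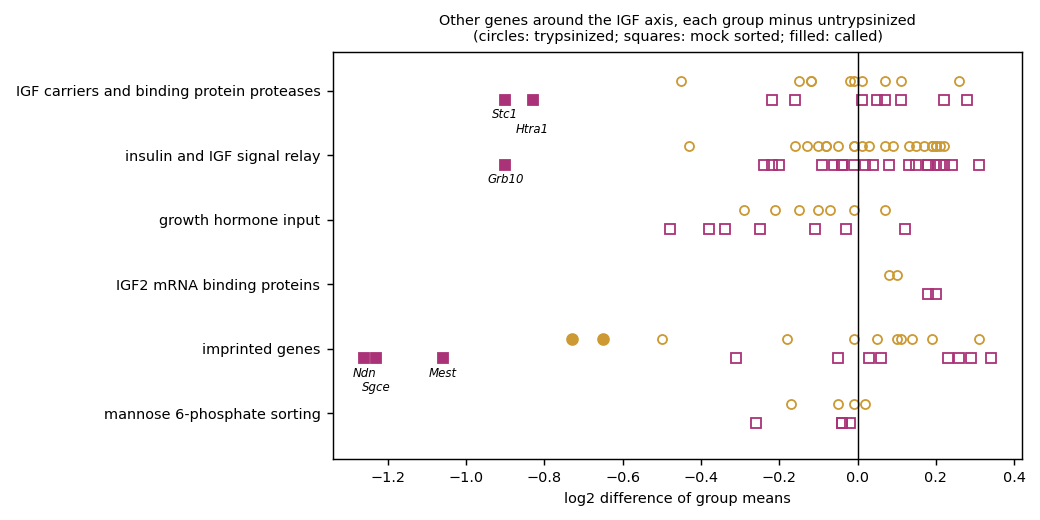
Log2 differences from untrypsinized cells for the measured genes of 6 lists around the IGF axis (circles, trypsinized; squares, mock sorted; filled, called changed). Filled squares at -0.83 or below are Stc1, Htra1, Grb10, Ndn, Sgce and Mest, and no gene of these lists was called higher.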

How the data were processed

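RNA of 9 mammary cell samples was measured on arrays. The authors deposited linear intensities. How they corrected background, summarised probes and scaled arrays is not given in the sources used here. Limma is the tool listed, per the submitters' processing notes. Of 35512 rows, 21789 had 1 gene symbol in the platform annotation, which can be old, 1621 had several and 12102 were unnamed. Symbols of 21698 rows were updated by gene number, and the row with the highest mean stood for a gene (19938 genes).

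Values were tested as log2(intensity + 1), and the added 1 is small beside the array medians. How much background remains in the values is not known, so folds of dim genes may still be understated. limma 3.58.1 in R 4.3.3 fitted a mean per group to all 9 arrays, with Benjamini-Hochberg adjustment over all genes. The fit was tested on simulated data. The genes, lists and naming rule were chosen with earlier results of these data known. The rule takes all 10 genes of the axis, genes of the related lists that were called or had the 3 smallest p-values of a list, the 5 genes most like Igf2 and the 3 most like each other called gene. Not every gene it gives is named.

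Each group uses the same replicate numbers. Across genes, deviations from group means of same-numbered arrays had correlations of 0.53, 0.29 and 0.29 for trypsinized with mock sorted arrays, at 0.11, 0.04 and -0.04 between untrypsinized and trypsinized arrays, and at 0.32, 0.18 and 0.06 between untrypsinized and mock sorted arrays. Among trypsinized and mock sorted arrays of unlike number, mock sorted 2 with trypsinized 3 had 0.16 and mock sorted 3 with trypsinized 2 had 0.13. The other unlike pairs were negative. The numbers thus seem to pair these arrays, by the values and not by the labels, clearly for replicate 1 and less so for replicates 2 and 3. Alternatives covered pseudocount, scaling, dim genes, rows per gene, variance model, array weights, arrays in the fit, the replicate block, the threshold and each array left out.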

Additional observations from a re-analysis of the deposited data

How the results depend on the processing

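Of 550 values of the 10 genes under an alternative, 538 were unchanged, and 0 called values changed sign. Unchanged meant the same side of the threshold, or, where no test was made, a move of less than the replicate spread. Some alternatives could not move a value, such as the mean of all rows for these genes with 1 row each. With no minimum fold, 5055 genes were called after trypsin and 7777 over both steps, and 6 IGF axis genes in each comparison, where the fold had held the count to 1 and 3. With array weights 0 IGF axis genes were called after trypsin. Leaving out single arrays gave 0 to 1 called genes of the axis after trypsin and 2 to 3 over both steps, and 257 to 332 and 857 to 957 over all genes. With the replicate block, 378 genes were called after trypsin (193 higher and 185 lower) and 954 over both steps, and no call on the 10 genes changed. The unadjusted p gave 366 and 932. No signal over background is recorded in the file, so detection of dim rows such as Mir483 is not settled.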
